A study of Mus musculus with 12 samples.

Results

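Liver RNA of 4 mice that had undergone vertical sleeve gastrectomy (VSG) was compared with that of 4 mice that had undergone sham surgery and returned to an unrestricted diet (Sham-Ad lib), which are 8 of the 12 libraries of the series. Members were chosen by the animal number that a library's name shares with its sample title, which gave animals 1F, 8F, 11F and 18F for VSG and 3F, 4F, 6F and 10F for Sham-Ad lib. All were C57BL/6 mice with diet-induced obesity (DIO) aged 21 weeks. According to the study's methods they were male and were fed a high fat diet from early life. The sham operation was a laparotomy with handling of the stomach. Livers were taken after a fast of some hours. By the paper's account the VSG mice had by then lost weight and weighed less than Sham-Ad lib mice. The groups thus differed in body weight as well as in the operation. VSG removes most of the stomach along its greater curvature and leaves a narrow tube. The remaining 4 libraries came from mice with sham surgery whose food was restricted to match the weight of the VSG group (Sham-WM), and they shared the fit's estimate of the spread and are set beside a few results. The description field of the labels links samples to libraries differently, and with groups taken from it 0 genes were called and 465 had an unadjusted p under 0.05, so every value below rests on the titles.

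The fed liver makes fatty acids from acetyl-CoA, and in obesity this synthesis adds to the triglyceride stored in hepatocytes. Sterol synthesis draws on the same acetyl-CoA, and both pathways are driven by the SREBP family of transcription factors. The liver also holds resident macrophages, the Kupffer cells, and receives neutrophils, monocytes and lymphocytes from blood, while its hepatocytes secrete the acute phase proteins when cytokines reach them. The comparison addressed how VSG alters hepatic gene expression relative to obese mice that were not food restricted.

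Between 15122520 and 19055615 reads were counted on genes in the 8 libraries, and 13054 genes passed the filter on low counts and were tested. Values are given as CPM (read counts scaled to the size of the library after TMM normalisation), in the order 3F, 4F, 6F and 10F for Sham-Ad lib and 1F, 8F, 11F and 18F for VSG, and a gene was called at a Benjamini-Hochberg adjusted p under 0.05 in edgeR's quasi-likelihood test. The libraries did not divide cleanly by group. On the first principal component of the 8 libraries, which held 67.7% of the variance of the 500 most variable genes, Sham-Ad lib 4F lay at 2.3, apart from the other Sham-Ad lib mice at -32.5, -31 and -19.8, and next to VSG 18F at -0.514, while the other VSG mice lay at 15.1, 26.3 and 40.1. Genes of myeloid cells followed a similar order of libraries, and the main counts are therefore also given without 4F and without 18F. Both were chosen because they lay nearest the other group, so leaving either out widens the groups and favours more calls. Such counts are not independent support. Over all genes tested 6.82% were called without 4F and 8.20% without 18F, and list counts without them stand beside these shares.

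VSG liver differed from Sham-Ad lib liver in 98 genes, or 0.751% of those tested, with 61 higher (0.467%) and 37 lower (0.283%). The genes that rose most were Camp, Ngp, Ltf, S100a9, S100a8 and Mpo, which encode granule and cytosolic proteins of neutrophils, and with them rose the Kupffer cell markers Clec4f, Vsig4 and Folr2, the antibody genes Igkc and Jchain and the acute phase gene Orm3. The genes that fell included the acetyl-CoA carboxylase Acacb, the ATP-citrate lyase Acly, the desaturase Fads2 and the sterol genes Hsd17b7, Lss and Sc5d. Called higher genes had a median log2 fold change of 1.92 and called lower genes one of -0.98, against 0.028 over all genes tested. Adjusted p-values of the called genes lay between 0.041 and 0.0495, and a further 212 genes lay between 0.05 and 0.06, so the threshold cut through a dense run of genes. In all, 1869 genes (14.3%) had an unadjusted p under 0.05 and were higher after VSG, and 1280 (9.81%) were lower. DESeq2 called 1202 genes (9.21%), 713 higher and 489 lower, among them all 98. Of the 98 called genes, 93 had no overlap between the 4 VSG and the 4 Sham-Ad lib values, against 636 genes higher (4.87%) and 566 lower (4.34%) without overlap in the whole table.

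**Figure D1:**
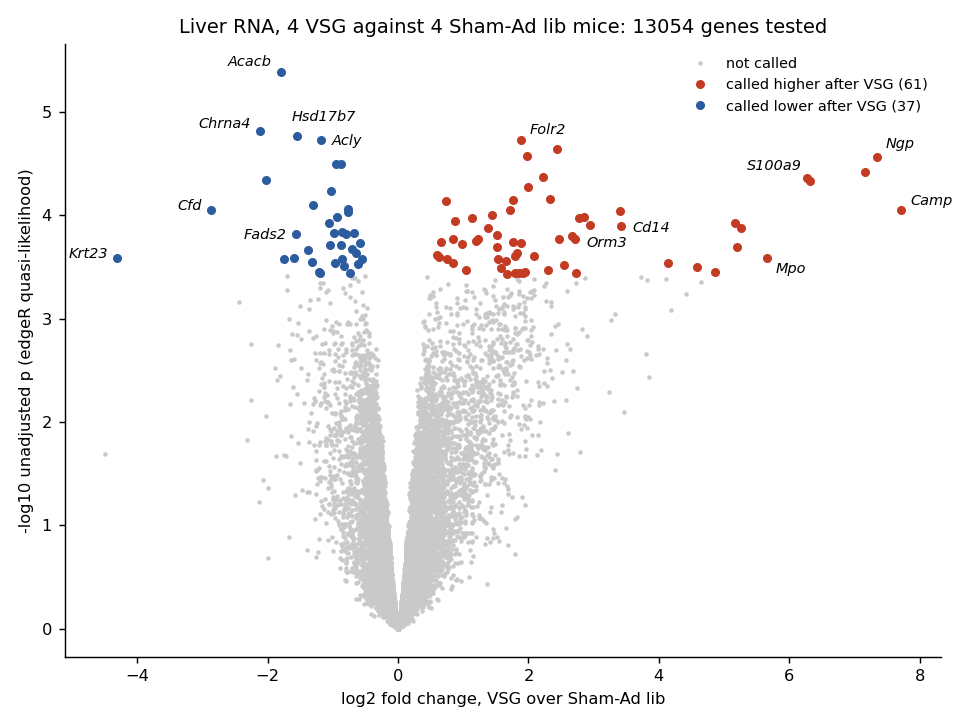
Each point is 1 of the 13054 genes tested, with the log2 fold change of VSG over Sham-Ad lib on the horizontal axis and -log10 of the unadjusted p on the vertical axis. The 61 genes called higher reach a log2 fold change of 7.71 (Camp) and the 37 called lower reach -4.31 (Krt23), while Acacb has the lowest p.

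The number of called genes depended on single libraries. Without Sham-Ad lib 4F 903 genes (6.82%) were called, and without VSG 18F 1089 (8.20%) were called. Without Sham-Ad lib 6F, VSG 1F, Sham-WM 2F or Sham-WM 9F 0 genes were called by edgeR, with 2126 to 3060 genes at an unadjusted p under 0.05. Without VSG 8F 227 genes were called and without VSG 11F 69, while the fits without Sham-Ad lib 3F, Sham-Ad lib 10F and Sham-WM 16F called 1 gene each and that without Sham-WM 15F called 3. A fit of the 8 libraries alone, without Sham-WM to share the spread, called 0 genes by edgeR, with 2523 at an unadjusted p under 0.05. In each of the 12 fits with a library left out, all 98 genes had an unadjusted p under 0.05. That outcome was largely set by the choice of genes, which had the lowest p-values of the main fit. Each of these fits also kept most of the same libraries. The signs of the 98 genes were likewise largely set by that choice, since 93 had no overlap between the groups.

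Promoter sequences are shown for Acacb and Acly and for the 2 genes with the largest rise, Camp and Ngp. They show the sequence before genes that fell and genes that rose. Acacb and Acly had the lowest p among called genes of the fatty acid synthesis, triglyceride synthesis and lipid droplet lists, which do not hold the sterol genes. The sequences are RefSeq's, on GRCm38.p6, read on the strand of the gene from the 250 bases before its start, cut off where an annotated exon of the gene begins. Capitals mark matches to 1 of 5 motifs searched on both strands: CCAAT (bound by NF-Y), CACGTG (an E-box), TCACNCCAC (a sterol response element), TTCNNNGAA (bound by STAT factors) and TTGCNNAA (bound by C/EBP factors). No 2 of these motifs overlapped in the 4 sequences. Acacb lies at chr5:114146535-114250761 on the plus strand and its window lies at chr5:114165268-114165508, inside the annotated gene, so that it stands before a start other than the most upstream one. Acly lies at chr11:100476353-100528000 on the minus strand with its window at chr11:100528001-100528250. Camp lies at chr9:109847379-109849617 on the minus strand with its window at chr9:109849618-109849706, and Ngp at chr9:110419747-110423012 on the plus strand with its window at chr9:110419558-110419746.
Acacb: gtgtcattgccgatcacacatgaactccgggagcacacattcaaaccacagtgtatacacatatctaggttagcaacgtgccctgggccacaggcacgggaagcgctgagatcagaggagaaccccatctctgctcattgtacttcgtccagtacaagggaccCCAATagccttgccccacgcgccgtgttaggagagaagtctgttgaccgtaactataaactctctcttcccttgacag
Acly: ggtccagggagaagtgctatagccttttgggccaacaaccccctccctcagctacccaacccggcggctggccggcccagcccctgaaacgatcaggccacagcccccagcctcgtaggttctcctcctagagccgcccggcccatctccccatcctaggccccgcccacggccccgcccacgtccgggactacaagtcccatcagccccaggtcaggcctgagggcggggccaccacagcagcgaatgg
Camp: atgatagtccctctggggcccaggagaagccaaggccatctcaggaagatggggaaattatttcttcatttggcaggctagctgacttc
Ngp: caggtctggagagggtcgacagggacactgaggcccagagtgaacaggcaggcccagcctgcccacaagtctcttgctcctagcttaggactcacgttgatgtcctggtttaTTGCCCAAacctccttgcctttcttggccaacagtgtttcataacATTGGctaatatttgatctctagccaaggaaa

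Positions are counted back from the 3′ end of each printed window. Acacb held a CCAAT whose first base was the 78th from that end. Ngp held a TTGCNNAA whose first base was the 77th and a CCAAT, read on the opposite strand, whose first printed base was the 32nd. The 250 bases of Acly held none of the 5 motifs, nor did the 89 bases of Camp, whose window was shorter because 161 bases were left out. The shares that follow were counted on the full 250 bases before each start, without the cut at exons, and genes of 1 chromosome were left out. Over the called genes with such a window, TTGCNNAA was found in 11 of 51 genes that rose (21.6%) and in 2 of 30 that fell (6.67%), against 7.9% of the 10114 windows of genes tested. CACGTG was found in 5 of 30 windows of genes that fell (16.7%) and 1 of 51 of genes that rose (1.96%), against 8.47% of all. CCAAT was found in 40.0% of the windows of genes that fell, 29.4% of those that rose and 36.6% of all, TCACNCCAC in 3.33%, 0 of 51 and 1.03%, and TTCNNNGAA in 10.0%, 5.88% and 6.25%. A match describes letters in the window and no binding was measured.

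Neutrophil genes rose furthest. Of the 10 tested members of the neutrophil marker list 8 were called higher and 0 lower, all 10 had an unadjusted p under 0.05, and the median log2 fold change was 5.96. Among all genes tested 0.467% were called higher and 14.3% were higher at that unadjusted p. Camp, Ltf, Mpo and Retnlg passed the filter on low counts through their VSG libraries. Markers as low in the other groups and not high in VSG would not have been tested. The shares of this list were therefore set in part by the filter. Ngp, a neutrophil granule protein, had CPM values of 0, 1.88, 0.0541 and 0.188 in Sham-Ad lib and 226, 106.4, 16.3 and 7.56 in VSG. Every VSG mouse lay above every Sham-Ad lib mouse, with 1F highest and 18F lowest among VSG and 4F highest among Sham-Ad lib (log2 fold change 7.34 ± 1.18 (SE), adjusted p = 0.041). Camp, which encodes the antimicrobial peptide cathelicidin, was at 0 counts in 3 of 4 Sham-Ad lib libraries and at 7 counts in 4F, against 936, 408, 121 and 38 counts in VSG (log2 fold change 7.71 ± 1.25, adjusted p = 0.0435). Its fitted fold change therefore rests on 7 reads in the control group. Ltf, encoding the iron-binding lactoferrin, had 27 counts over the 4 Sham-Ad lib libraries and 3855 over the 4 VSG libraries (log2 fold change 7.16 ± 1.19, adjusted p = 0.041).

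S100a8 and S100a9 encode the subunits of calprotectin, an abundant cytosolic protein of neutrophils and monocytes. S100a9, at chr3:90692632-90695721, had CPM values of 0.223, 5.04, 0.162 and 1 in Sham-Ad lib and 326, 132, 53.3 and 8.76 in VSG (log2 fold change 6.31 ± 1.07, adjusted p = 0.041). S100a8, at chr3:90668978-90670035, had 0.167, 4.13, 0.108 and 0.69 in Sham-Ad lib and 260, 96.2, 38.9 and 7.85 in VSG (6.27 ± 1.06, adjusted p = 0.041). The same 2 libraries set the narrowest gap for both genes, 4F below and 18F above. Mpo, the myeloperoxidase of primary granules, had 45 counts over the Sham-Ad lib libraries, 44 of them in 4F, and 2232 over the VSG libraries (5.65 ± 1.15, adjusted p = 0.0459). Elane, the neutrophil elastase of the same granules, was called (5.26 ± 1, adjusted p = 0.0442) although its lowest VSG value of 1.08 lay under the 4F value of 1.18. Retnlg (5.17 ± 0.97), Mmp9, a granule gelatinase (4.14 ± 0.85), and Pglyrp1, a peptidoglycan recognition protein (4.86 ± 1.02), also rose. The receptors Csf3r, for G-CSF, and Cxcr2, for neutrophil chemokines, had log2 fold changes of 2.14 ± 0.56 (adjusted p = 0.0655) and 2.58 ± 0.7 (adjusted p = 0.0663) and were not called. Without 4F, and likewise without 18F, 10 neutrophil genes were called, with medians of 8.24 and 6.35, and without VSG 1F 0 were called at a median of 5.01. Ly6g and Mmp8 did not pass the filter on low counts.

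**Figure D2:**
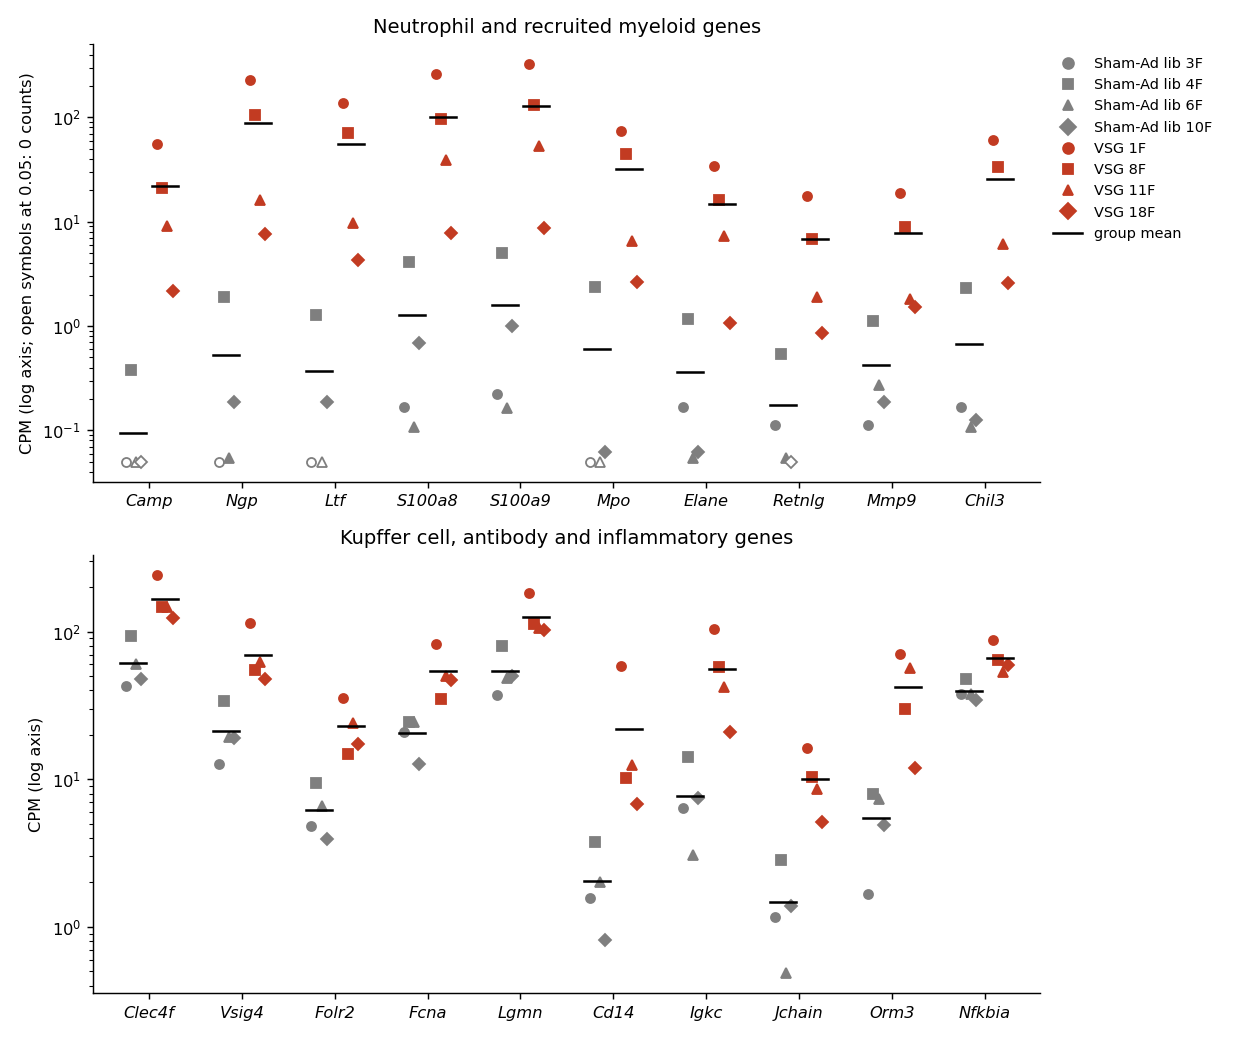
CPM of each gene in each library on log axes, Sham-Ad lib in grey and VSG in red, with a symbol per animal and a line at the group mean. Ngp runs from 7.56 to 226 CPM in VSG and from 0 to 1.88 in Sham-Ad lib, and 1F is the highest and 18F the lowest VSG library for the neutrophil genes of the upper panel, while Clec4f and Nfkbia in the lower panel differ by less than the neutrophil genes.

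Of the Kupffer cell list 3 genes rose, Clec4f, Vsig4 and Folr2. All 12 markers had an unadjusted p under 0.05 and were higher, with 3 called, 6 without overlap and a median log2 fold change of 1.62. The shares of all genes tested were 14.3%, 0.467% and 4.87% in that order. Clec4f, the C-type lectin that defines mouse Kupffer cells (chr6:83644542-83656187), had CPM values of 42.8, 93.7, 60.1 and 47.9 in Sham-Ad lib and 242, 148, 148 and 124 in VSG, a 2.71-fold rise (log2 fold change 1.44 ± 0.26, adjusted p = 0.0435). Vsig4, a complement receptor, had 12.6, 34, 19.2 and 19.1 in Sham-Ad lib and 114.7, 55.2, 62 and 48.2 in VSG (1.72 ± 0.31, adjusted p = 0.0435). Folr2, a folate receptor of resident macrophages, had 4.8, 9.5, 6.55 and 3.95 against 35.4, 14.9, 24 and 17.2 (1.88 ± 0.29, adjusted p = 0.041). In all 3 genes 4F was the highest Sham-Ad lib value and still lay below every VSG value. C1qa, a chain of complement C1q, and Marco, a scavenger receptor, had log2 fold changes of 1.61 ± 0.36 (adjusted p = 0.0515) and 2.68 ± 0.75 (adjusted p = 0.072) and were not called. Of the 12 Kupffer cell genes 12 were called without 4F (median 2.11), 10 without 18F (1.81) and 0 without 1F (1.25). In these bulk libraries more cells of a type and more RNA per cell cannot be told apart.

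Genes of recruited and lipid-associated macrophages had a median log2 fold change of 1.23. At an unadjusted p under 0.05 were 6 of 12, all higher (14.3% of all genes), and 1 was called (0.467%). That gene was Chil3, a chitinase-like lectin of alveolar and recruited myeloid cells, with CPM values of 0.167, 2.31, 0.108 and 0.125 in Sham-Ad lib and 60.3, 33.6, 6.1 and 2.56 in VSG (5.2 ± 1.03, adjusted p = 0.0445). Ly6c2, an antigen of inflammatory monocytes, lay just outside the threshold (3.73 ± 0.8, adjusted p = 0.0502). Further myeloid genes were called that no list held. Cd14, the lipopolysaccharide co-receptor, had 1.56, 3.76, 2 and 0.816 CPM in Sham-Ad lib and 58.5, 10.2, 12.4 and 6.83 in VSG, where 1F stood apart (3.42 ± 0.64, adjusted p = 0.0442). Ifitm6 (4.59 ± 0.96), the lysozyme gene Lyz1 (2.67 ± 0.51) and Ppbp, a platelet chemokine (3.4 ± 0.62), met the rule for named genes. The following were picked after their values were seen. Fcna, a ficolin of macrophages, had 20.9, 24.4, 24.6 and 12.7 CPM in Sham-Ad lib and 83, 35, 50.2 and 47.2 in VSG (1.38 ± 0.26, adjusted p = 0.0442). Lgmn, a lysosomal protease, had 37.2, 79.8, 48.7 and 50.1 against 184, 113.2, 105.5 and 102 (1.23 ± 0.24, adjusted p = 0.0442). Fcer1g, the signalling chain of Fc receptors, was called at 1.85 ± 0.39 (adjusted p = 0.0493) with an overlap, since 4F at 15.5 CPM exceeded 18F at 15.2.

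Of the B and plasma cell list the antibody genes Igkc and Jchain rose. Of 13 tested genes of the B and plasma cell list 10 had an unadjusted p under 0.05, all higher, 6 did not overlap and 2 were called, with a median log2 fold change of 1.78. All genes tested had 14.3%, 4.87% and 0.467% higher by these rules. Igkc, the kappa constant region, had CPM values of 6.36, 14.1, 3.08 and 7.47 in Sham-Ad lib and 103.8, 57.7, 42.4 and 20.8 in VSG (2.85 ± 0.53, adjusted p = 0.0435). Jchain, which joins secreted IgM and IgA, had 1.17, 2.84, 0.487 and 1.38 against 16.3, 10.4, 8.66 and 5.12 (2.77 ± 0.51, adjusted p = 0.0435). Neither gene overlapped between groups, and Ighm (2.09 ± 0.47, adjusted p = 0.0515), Ighg2b (3.32 ± 0.78, adjusted p = 0.0542) and Ighg2c (3.26 ± 0.78, adjusted p = 0.0567) lay close to the threshold without passing it. Without 4F 8 of the B and plasma cell genes were called, without 18F 7 and without 1F 0, with medians of 2.19, 2.07 and 1.33. Immunoglobulin constant regions are alike in sequence, so reads may be shared among them. T and NK cell genes were scarce: 6 of 13 passed the filter, 0 were called, 3 were higher at an unadjusted p under 0.05, and the median log2 fold change was 1.06, with Klrb1c at 1.49 ± 0.51 (adjusted p = 0.107) and Nkg7 at 1.25 ± 0.42 (adjusted p = 0.104). Icos, a T cell co-stimulator held by no list, was called at 1.94 ± 0.41 (adjusted p = 0.0493), with 0.279, 0.859, 0.27 and 0.816 CPM in Sham-Ad lib and 2.87, 2.5, 1.43 and 1.71 in VSG. Of 9 tested genes of MHC class II presentation 0 were called and 4 were higher at an unadjusted p under 0.05 (median 0.79), led by H2-DMb1 (1.25 ± 0.41, adjusted p = 0.0993) and Flt3 (1.25 ± 0.54, adjusted p = 0.183).

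The summed CPM of the marker lists showed how far the libraries differed in these cells. Neutrophil markers summed to 2.29, 22.8, 1.62 and 3.64 CPM in Sham-Ad lib and to 1130, 500, 144 and 40.2 in VSG. Kupffer cell markers summed to 216, 670, 283 and 239 in Sham-Ad lib and to 1890, 978, 913 and 696 in VSG, so that 4F nearly reached 18F. B and plasma cell markers ranged from 17.6 to 63.5 in Sham-Ad lib and from 78.1 to 308 in VSG. T and NK cell markers ranged from 2.43 to 5.65 in Sham-Ad lib and from 5.88 to 9.62 in VSG. Recruited macrophage markers, which overlapped, ranged from 46 to 121 in Sham-Ad lib and from 95.9 to 257 in VSG. MHC class II genes summed to between 100 and 332 in Sham-Ad lib and to between 198 and 362 in VSG. In the 4 Sham-WM libraries the neutrophil sum lay between 3.15 and 4.23 CPM and the Kupffer cell sum between 189 and 312.

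**Figure D3:**
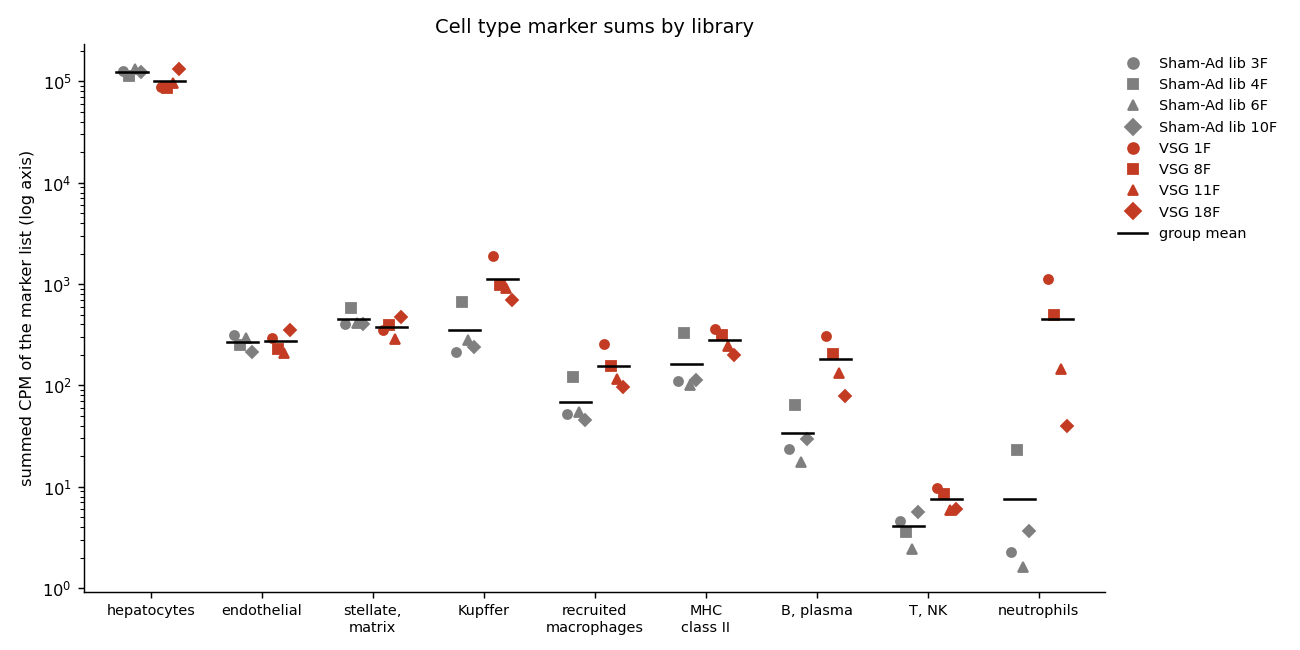
Summed CPM of each cell type marker list in each library on a log axis, with a line at the group mean. Neutrophil sums run from 40.2 to 1130 CPM in VSG and from 1.62 to 22.8 in Sham-Ad lib, whereas endothelial and stellate sums overlap between the groups.

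Other cell types of the liver showed no called marker. Among all genes tested 9.81% were lower and 14.3% higher at an unadjusted p under 0.05. Hepatocyte markers, led by Alb, summed to between 112000 and 133000 CPM in Sham-Ad lib and to between 85700 and 133000 in VSG, so that the markers of the labelled tissue were abundant in all 8 libraries, and 0 of 10 had an unadjusted p under 0.05 (median log2 fold change -0.18). Alb itself took 4.89% to 5.71% of the counts in 1F, 8F and 11F and 9.15% in 18F, against 7.82% to 9.45% in Sham-Ad lib (-0.41 ± 0.22, adjusted p = 0.28). Of 14 stellate cell and matrix genes 3 were lower at an unadjusted p under 0.05 and 0 were called (median -0.31), with Reln at -0.99 ± 0.24 (adjusted p = 0.0585) and Tagln at -0.73 ± 0.25 (adjusted p = 0.11). Of 14 liver endothelial genes 1, Cdh5, had an unadjusted p under 0.05 (0.52 ± 0.22, adjusted p = 0.179), and the median was 0.07. Cholangiocyte markers (7 tested, median -0.02), red blood cell genes (7 tested, median 0.2) and the 3 tested of 16 genes of pancreas, stomach and gut (median 0) held 0 genes at an unadjusted p under 0.05. Of that last list 10 genes were at 0 counts in every library.

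Of the acute phase list Orm3 and Tifa rose. Of 34 tested genes 31 had a log2 fold change above 0, 19 were higher and 0 lower at an unadjusted p under 0.05, 2 were called and the median was 0.91. Over all genes 14.3% were higher and 9.81% lower at that p, and 0.467% were called higher. Orm3, an orosomucoid gene with close paralogs that may share its reads, had CPM values of 1.67, 8, 7.36 and 4.89 in Sham-Ad lib and 71.1, 30.1, 56.5 and 12 in VSG (2.95 ± 0.55, adjusted p = 0.0442). Tifa, an adaptor of NF-kappaB signalling, had 14.2, 26.7, 17.1 and 20.7 against 52.9, 37.4, 45.6 and 37 (1.13 ± 0.21, adjusted p = 0.0435), and it shares its locus with Ap1ar on the opposite strand. The major serum amyloid genes did not separate the groups. Saa1 had 141, 2127, 798 and 6026 CPM in Sham-Ad lib and 11970, 5208, 11830 and 245 in VSG (1.69 ± 1.11, adjusted p = 0.365), and Saa2 behaved alike (1.79 ± 1.29, adjusted p = 0.406). In both genes VSG 18F lay below 3 of the Sham-Ad lib mice and Sham-Ad lib 10F lay above VSG 8F. Saa3 (3.85 ± 1.09, adjusted p = 0.0749), Orm2 (3.47 ± 1.11, adjusted p = 0.0958) and Lcn2, the siderophore-binding lipocalin (2.79 ± 1.05, adjusted p = 0.137), varied more between mice than Orm3 and were not called. Without 4F 11 acute phase genes were called (median 1.26), without 18F 14 (1.1) and without 1F 0 (0.74).

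Nfkbia and Nfkbib, which encode inhibitors of NF-kappaB, rose. Nfkbia, whose product holds NF-kappaB in the cytoplasm, had 37.9, 47.8, 37.9 and 34.5 CPM in Sham-Ad lib and 88, 64.7, 53.3 and 59.7 in VSG (0.75 ± 0.15, adjusted p = 0.0459). Nfkbib had 13.4, 16.6, 13.6 and 12.4 against 27.4, 19.1, 21.8 and 20.1 (0.66 ± 0.13, adjusted p = 0.0442), with Sirt2 overlapping it on the opposite strand. Neither gene is in a list, and both were picked after their values were seen. Nfkbiz (1.36 ± 0.44, adjusted p = 0.0998) and Bcl3 (0.92 ± 0.27, adjusted p = 0.0806), nuclear members of the same family, overlapped between the groups and were not called. Of the inflammasome sensors Aim2 was called (1.8 ± 0.38, adjusted p = 0.0493) and Nlrp3 was not (1.72 ± 0.5, adjusted p = 0.077). Both are likewise in no list and were picked after their values were seen. Cadm3 overlaps Aim2 on the opposite strand, with 86.8 counts per library on average against 25.9 for Aim2. Of 28 interferon and MHC class I genes 27 had a log2 fold change above 0 and 7 were higher at an unadjusted p under 0.05, but 0 were called (median 0.3). At that p 14.3% of all genes tested were higher. Irf7 stood at 0.63 ± 0.18 (adjusted p = 0.0765) and Oas1a at 0.79 ± 0.25 (adjusted p = 0.0925). Proliferation genes had a median of 0.44 with 8 of 16 higher at an unadjusted p under 0.05 and 0 called, Top2a standing at 2.16 ± 0.63 (adjusted p = 0.0808) and Aurkb at 2.13 ± 0.81 (adjusted p = 0.14). Of 11 small nucleolar RNA host genes all had a log2 fold change above 0 and 5 were higher at an unadjusted p under 0.05 (median 0.54). Zfas1 was called, with 4.69, 6.22, 5.57 and 6.46 CPM in Sham-Ad lib and 11.7, 7.76, 17.8 and 10.4 in VSG (1.05 ± 0.22, adjusted p = 0.0493), and it lies beside Znfx1 on the opposite strand.

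Of the fatty acid synthesis genes Acacb and Acly fell. The list of 7 genes comes from the study. Acly, Acaca, Acacb, Fasn, Elovl6, Me1 and Scd1 all had an unadjusted p under 0.05 and a negative log2 fold change, 6 of them had no overlap between the groups, 2 were called, 7 passed in DESeq2 and the median was -1.18. Of all genes tested 9.81% were lower at that p, 4.34% lower without overlap and 0.283% called lower, and DESeq2 called 9.21%. Because the list was chosen on these samples, its direction is not independent evidence. Acacb, the mitochondrial acetyl-CoA carboxylase whose malonyl-CoA restrains fatty acid oxidation, had CPM values of 98.9, 119, 110 and 70.9 in Sham-Ad lib and 28.7, 36.1, 16.6 and 33 in VSG. Its mean fell 3.48-fold, from 99.7 ± 20.9 to 28.6 ± 8.58 CPM (SD, n = 4; log2 fold change -1.8 ± 0.24, adjusted p = 0.041 by edgeR), and it was the gene with the lowest unadjusted p of the table, 4.12e-06. Acly, which cleaves citrate into acetyl-CoA, had 308, 339, 287 and 254 in Sham-Ad lib and 120, 153, 101 and 151 in VSG, a 2.26-fold fall (-1.18 ± 0.18, adjusted p = 0.041). Every VSG value of Acly lay far under the lowest Sham-Ad lib value. Fasn, the fatty acid synthase, had 481, 575, 421 and 482 in Sham-Ad lib and 199, 291, 126 and 242 in VSG and narrowly missed the threshold (-1.19 ± 0.26, adjusted p = 0.051). Acaca, the cytosolic carboxylase, had 142, 137, 142 and 154 against 61, 99.8, 49.4 and 96.2 (-0.91 ± 0.22, adjusted p = 0.0573). Elovl6, which lengthens palmitate, had 113.2, 102, 136 and 102 against 42.5, 53.3, 43.8 and 65.6 (-1.14 ± 0.28, adjusted p = 0.0578). Scd1, the stearoyl-CoA desaturase, had 4604, 7276, 4190 and 3509 against 1556, 3488, 1227 and 2688, so that VSG 8F nearly reached Sham-Ad lib 10F (-1.13 ± 0.34, adjusted p = 0.0872). Me1, a source of NADPH, was the member with an overlap, since Sham-Ad lib 10F at 68.1 CPM lay below 2 of the VSG mice (-1.35 ± 0.31, adjusted p = 0.0524). Without 4F, and likewise without 18F, 6 of the 7 genes were called, and without 1F 0 were called, while the median stayed between -1.26 and -1.11 in these fits.

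**Figure D4:**
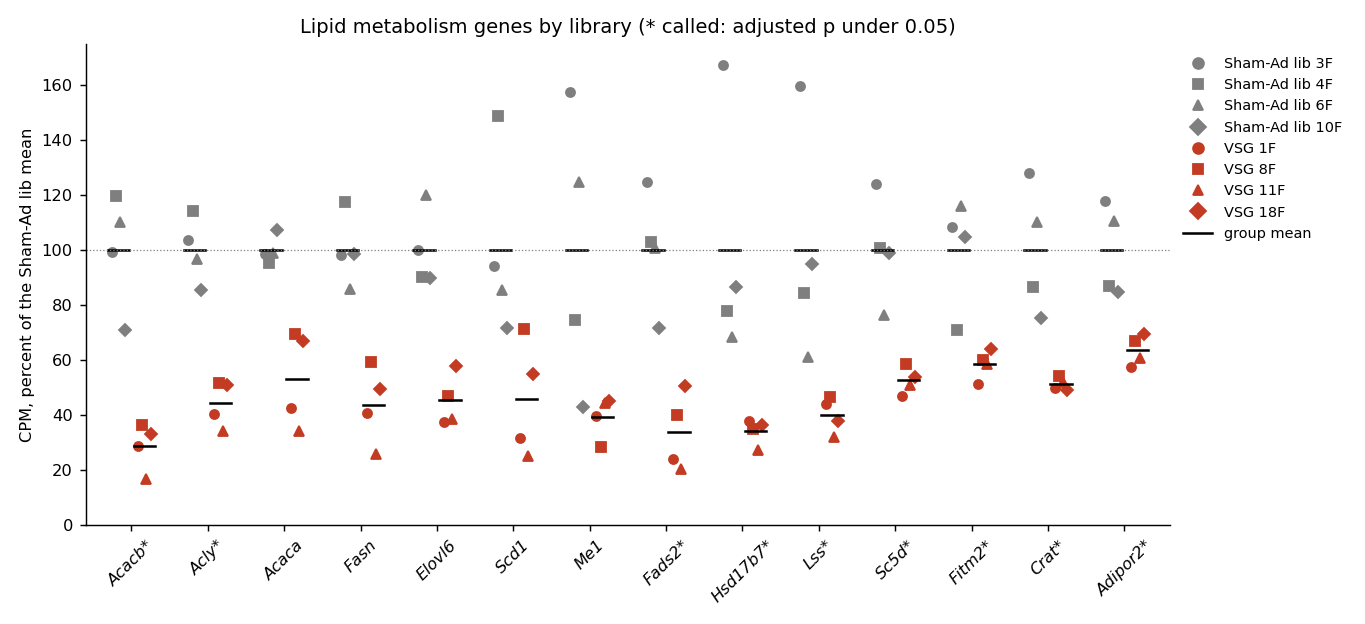
CPM of 14 lipid genes in each library as a percent of the gene's Sham-Ad lib mean, with a line at each group's mean and an asterisk on called genes. Every VSG value lies below 100 percent in all 14 genes, and Me1 is the gene in which a Sham-Ad lib mouse (10F) lies among the VSG mice.

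Beyond those 7 genes, 24 other genes of fatty acid and triglyceride synthesis had a median log2 fold change of -0.42. At an unadjusted p under 0.05 12 were lower and 2 higher, against 9.81% and 14.3% of all genes. Without overlap 7 were lower (4.34% of all genes), and 1 was called (0.283% called lower). That gene was Fads2, the delta-6 desaturase of polyunsaturated fatty acid synthesis (chr19:10062765-10101746), with CPM values of 982, 812, 793 and 565 in Sham-Ad lib and 189, 314, 162 and 398 in VSG (-1.57 ± 0.3, adjusted p = 0.0442). Aacs, which activates acetoacetate for lipid synthesis, stood at -1.54 ± 0.37 (adjusted p = 0.0573). G6pdx, the entry to the pentose phosphate pathway, and Scd2 went the other way without being called (1.34 ± 0.43, adjusted p = 0.0942, and 0.75 ± 0.28, adjusted p = 0.133), and G6pdx overlaps Ikbkg on the opposite strand. Of 22 lipid droplet genes 6 were lower and 1 higher at an unadjusted p under 0.05 (median -0.2). Fitm2, which partitions triglyceride into droplets, was called, with 84.2, 55.1, 90 and 81.3 in Sham-Ad lib and 39.8, 46.5, 45.6 and 49.5 in VSG (-0.77 ± 0.14, adjusted p = 0.0435). The droplet proteins Cidec (-2.44 ± 0.56, adjusted p = 0.0528) and Cidea (-2.31 ± 0.83, adjusted p = 0.121) had larger and less certain differences, Cidea at no more than 1.4 CPM. Plin2, the main droplet coat of hepatocytes, stood at -0.76 ± 0.18 (adjusted p = 0.0573) and the lipase inhibitor G0s2 at -1.3 ± 0.45 (adjusted p = 0.112), while Lpl, the lipoprotein lipase, was the member that was higher (1.29 ± 0.38, adjusted p = 0.082).

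Of the sterol genes Hsd17b7, Lss and Sc5d were among those that fell. All 24 genes of cholesterol synthesis and uptake had a negative log2 fold change, 19 had an unadjusted p under 0.05, 9 did not overlap, 4 were called and 15 passed in DESeq2, and the median was -1.1. Shares of all genes tested were 9.81% lower at that p, 4.34% lower without overlap, 0.283% called lower and 9.21% called by DESeq2. Hsd17b7, which acts late in the conversion of lanosterol to cholesterol, had CPM values of 134, 62.5, 54.7 and 69.3 in Sham-Ad lib and 30.4, 28.1, 21.8 and 29.1 in VSG (-1.55 ± 0.24, adjusted p = 0.041). Lss, the lanosterol synthase, had 113.6, 60.2, 43.5 and 67.6 against 31.4, 33.1, 22.7 and 26.8 (-1.32 ± 0.27, adjusted p = 0.0469). In both genes the VSG mice lay close together and 3F stood above the other Sham-Ad lib mice. Sc5d, a sterol desaturase, had 848, 688, 523 and 675 in Sham-Ad lib and 321, 400, 348 and 368 in VSG (-0.93 ± 0.17, adjusted p = 0.0435). In none of these genes did the groups overlap. Hmgcs1 had 888, 441, 210 and 355 CPM against 235, 139, 96 and 144 (-1.62 ± 0.41, adjusted p = 0.0594), and Fdps, the farnesyl diphosphate synthase, stood at -1.64 ± 0.44 (adjusted p = 0.0663). Of the 24 sterol genes 10 were called without 4F (median -1.12), 5 without 18F (-0.98) and 0 without 1F (-1.38). For Hsd17b7 the log2 fold change ranged from -1.7 to -1.19 over the 12 fits that each left out a mouse.

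Of the fatty acid oxidation genes Crat fell. Of 30 genes 28 had a negative log2 fold change, 14 had an unadjusted p under 0.05 and all of those were lower, 1 was called and the median was -0.28. Across all genes tested 9.81% were lower at that p and 0.283% were called lower. Crat, the carnitine acetyltransferase, had CPM values of 85.4, 57.8, 73.4 and 50.1 in Sham-Ad lib and 33.3, 36.1, 34.7 and 32.7 in VSG (-0.96 ± 0.2, adjusted p = 0.0469), and Dolpp1 overlaps it on the opposite strand. The nuclear receptor Ppara had 209, 161, 224 and 142 against 69.3, 140, 57.4 and 111.8 (-0.96 ± 0.24, adjusted p = 0.0635), with Sham-Ad lib 10F just above VSG 8F. Cpt1a, the carnitine palmitoyltransferase that admits fatty acids to mitochondria, stood at -0.65 ± 0.17 (adjusted p = 0.0655). The Ppara targets Cyp4a14 (-1.75 ± 0.67, adjusted p = 0.14) and Fgf21 (-1.55 ± 0.47, adjusted p = 0.0846) varied widely, Cyp4a14 from 67.8 to 752 CPM among Sham-Ad lib mice. Adipor2, the adiponectin receptor linked to oxidation, is in no list and was picked after its values were seen, and it had 701, 518, 658 and 505 in Sham-Ad lib against 342, 397, 361 and 413 in VSG (-0.65 ± 0.13, adjusted p = 0.0459).

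Pathways of glucose, amino acids, bile acids and glucagon held a single called gene, Map3k13. For comparison, 9.81% of all genes tested were lower and 14.3% higher at an unadjusted p under 0.05, and counts near these shares do not mark out a list. Of 20 genes of glucagon and insulin signalling 5 were lower at an unadjusted p under 0.05 (median -0.1), in which Map3k13, a kinase upstream of JNK, fell (-1.04 ± 0.2, adjusted p = 0.0442), with a same-strand neighbour, 1300002E11Rik, that may share its reads. Pde4d, a cyclic AMP phosphodiesterase, stood at -1.2 ± 0.38 (adjusted p = 0.0915). Of 22 glucose metabolism genes 9 were lower at an unadjusted p under 0.05 and 0 were called (median -0.3), among them Ppp1r3g, a glycogen-targeting subunit (-1.71 ± 0.66, adjusted p = 0.142). Of 29 genes of amino acid breakdown and the urea cycle 4 were lower and 1 higher at an unadjusted p under 0.05 (median -0.12), with Got1, the aspartate aminotransferase, at -0.77 ± 0.24 (adjusted p = 0.0937). Of 23 bile acid genes 4 were lower and 1 higher (median -0.13). Cyp8b1, which directs bile acids towards cholic acid, had CPM values of 442, 155, 335 and 382 in Sham-Ad lib and 59.6, 62.7, 177 and 133 in VSG (-1.6 ± 0.43, adjusted p = 0.0663), and Cyp2c70, which makes muricholic acids, stood at 0.63 ± 0.2 (adjusted p = 0.0915).

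The remaining hepatocyte lists held 0 called genes. Their counts at an unadjusted p under 0.05 stand beside 9.81% lower and 14.3% higher among all genes tested. Cytochrome P450 and conjugation genes (27 tested, median -0.25) had 4 lower and 1 higher at an unadjusted p under 0.05, with Gstp1 at 0.98 ± 0.29 (adjusted p = 0.0846) and Cyp2b13 at -4.5 ± 1.71 (adjusted p = 0.138). The Cyp2b13 value rested on 6F, at 25.8 CPM against at most 0.512 in the other 7 mice, and without 6F it was 0.58. Genes of the growth hormone axis and sex-biased expression had 1 of 18 lower (median -0.12). Of 30 hepatocyte secreted proteins 2 were higher and 4 lower at an unadjusted p under 0.05 (median 0.06). Apoa4 had 708, 750, 652 and 467 CPM in Sham-Ad lib and 324, 166, 429 and 322 in VSG (-1.05 ± 0.24, adjusted p = 0.053), Apob stood at -0.49 ± 0.22 (adjusted p = 0.203), the transferrin gene Trf at 1.08 ± 0.3 (adjusted p = 0.0744) and Fetub at 0.68 ± 0.2 (adjusted p = 0.0771). Clock genes had 2 of 19 lower (median -0.22), Wee1 at -1.06 ± 0.31 (adjusted p = 0.0775). Glucocorticoid and metallothionein genes had 3 of 16 higher (median -0.02), Mt2 at 1.48 ± 0.59 (adjusted p = 0.154), and folding and stress genes of the endoplasmic reticulum had 2 of 23 lower and 1 higher (median -0.07), Sel1l at -0.53 ± 0.13 (adjusted p = 0.0567).

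**Figure D5:**
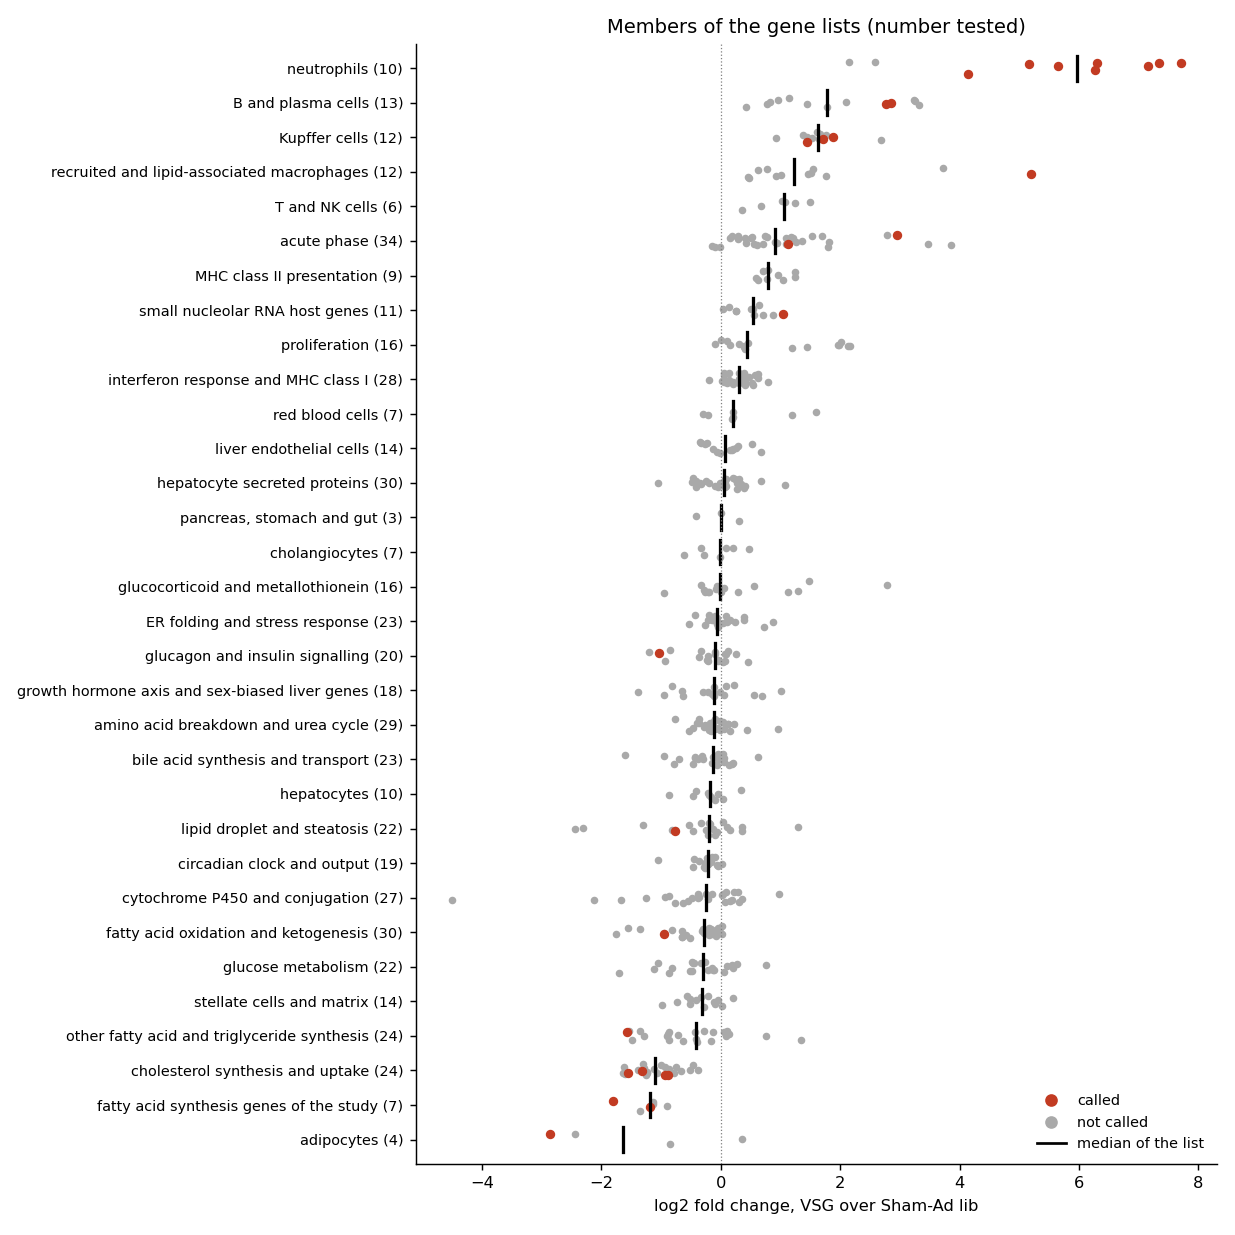
Log2 fold change of each tested member of the 32 gene lists, with called genes in red and a black line at the list's median, the lists ordered by that median. Neutrophil genes have a median of 5.96, cholesterol genes one of -1.1 with all 24 members below 0, and hepatocyte secreted proteins one of 0.06.

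Among genes that fell outside these pathways, Krt23, a keratin that is induced in injured hepatocytes, had the largest decrease. Its CPM values were 3.74, 2.47, 17.7 and 1.57 in Sham-Ad lib and 0.119, 0.408, 0.527 and 0.228 in VSG (-4.31 ± 0.88, adjusted p = 0.0459). Every VSG mouse lay below every Sham-Ad lib mouse, and 6F stood apart. Cfd, the complement factor D that adipocytes secrete and fatty liver also expresses (chr10:79890853-79892655), had 10.2, 8.69, 6.87 and 5.33 in Sham-Ad lib and 1.79, 0.766, 1.58 and 0.171 in VSG (-2.87 ± 0.52, adjusted p = 0.0435). It belongs to the adipocyte list. Of its 8 genes 4 passed the filter, while Adipoq, Lep, Plin1 and Retn were too low to test. Of the 4 tested genes 3 were lower at an unadjusted p under 0.05 and 1 was called (median -1.64). Among all genes tested 9.81% were lower at that p and 0.283% were called lower. Fabp4 went the other way without being called (0.35 ± 0.27, adjusted p = 0.442). Slc17a8, a vesicular glutamate transporter, had 52.1, 12.4, 30.4 and 25.8 against 5.8, 7.25, 8.66 and 7.79 (-2.03 ± 0.34, adjusted p = 0.041), and Chrna4, a nicotinic receptor subunit, stood at -2.11 ± 0.32 (adjusted p = 0.041). The rule for named genes also took Olig1 (-1.59 ± 0.32), Gprin3 (-1.38 ± 0.27), Lamb3 (-1.31 ± 0.23), D130043K22Rik (-1.21 ± 0.26), P2ry4, a nucleotide receptor (-1.19 ± 0.25), and Pstpip2 (-1.06 ± 0.2). Lamb3 shares its locus with G0s2 and Hsd11b1 on the opposite strand, which had 1260 and 8490 counts per library on average against 100 for Lamb3, and the strand setting of the counting is not given in the sources used here.

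The Sham-WM libraries place some of these values beside those of food restriction. The contrasts share libraries, and over all genes tested 26.9% were called for VSG against Sham-WM and 6.99% for Sham-WM against Sham-Ad lib. Of the 98 called genes 88 were also called for VSG against Sham-WM, 87 of them in the same direction. The exception was Slc23a2, an ascorbate transporter in no list, picked after its values were seen. It averaged 46.5 CPM in Sham-Ad lib, 28.6 in VSG and 19.9 in Sham-WM. VSG was thus lower than Sham-Ad lib (-0.7 ± 0.14, adjusted p = 0.0454) and higher than Sham-WM (0.52 ± 0.14, adjusted p = 0.0168). S100a8 averaged 0.687 ± 0.202 CPM in Sham-WM (SD, n = 4), against 100.7 ± 112.2 in VSG and 1.27 ± 1.92 in Sham-Ad lib, and Sham-WM was not called different from Sham-Ad lib (edgeR adjusted p = 0.752). Acly and Acacb were higher in Sham-WM than in Sham-Ad lib (log2 fold change 1.85, adjusted p = 0.000108, and 1.1, adjusted p = 0.0139), opposite to their direction after VSG. Fitm2 and Cfd were lower in Sham-WM too (-0.67, adjusted p = 0.0124, and -4.44, adjusted p = 0.000877), and VSG and Sham-WM were not called different from each other in these genes (-0.1 ± 0.14, adjusted p = 0.611, and 1.57 ± 0.63, adjusted p = 0.0804). The sterol genes Hsd17b7, Lss and Sc5d averaged 81.7, 93.7 and 771 CPM in Sham-WM, against 80.2, 71.2 and 683 in Sham-Ad lib and 27.3, 28.5 and 359 in VSG.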

How the data were processed

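Liver poly(A) RNA of mice was sequenced as directional paired libraries. Alignment to mm10 by the authors used TopHat2 2.1.1, and counting on Ensembl genes used featureCounts. The deposited counts are whole numbers without normalization or correction for batch. The annotation release and the strand setting are not given in the sources used here. All 37 mitochondrial genes of the table were at 0 counts. Of 46078 genes 45229 matched GENCODE M21, which gave symbols and positions on mm10.

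Groups were taken from sample titles. The 3 groups were fitted together with edgeR 4.0.16 (R 4.3.3; TMM, filterByExpr at its defaults of 10 counts and a total of 15, quasi-likelihood test), and VSG was contrasted with Sham-Ad lib, with Benjamini-Hochberg adjustment over 13054 genes. TMM factors of the 8 libraries lay between 0.879 and 1.03, and 3 counts corresponded to 0.153 to 0.226 CPM. Errors of log2 fold changes are standard errors derived from the test. Reads carry no molecular identifiers, so counts and p-values measure these mice and counting error. The numbers after S that end the library names run in 1 block per group, and what they stand for is not stated. A batch tied to them, if there was any, and the operation cannot be told apart. The paper's methods report that RUVSeq was used to take out batch variation, and they do not name the batches. The method was tested on simulated data.

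The authors used DESeq2 with RUVSeq factors. Here DESeq2 1.42.0, RUVs and RUVr factors (k = 2, written out from their definitions), upper quartile scaling, filters, fits of 8 libraries, groups from the description field and the removal of each library in turn were alternatives.

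Named genes are the 15 called higher and 15 called lower with the largest log2 fold change, mean log2 CPM not under 0 and groups that do not overlap, plus called members of 32 gene lists and the 2 members with the largest fold change each way, of which, by a restriction added after the values were seen, those with an unadjusted p under 0.05 are given. Some list members are counted but not reported here by name. The members and lists were chosen with earlier results of these data known.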

Additional observations from a re-analysis of the deposited data

Results flagged for a closer look

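In a group of 4 mice, a value was singled out where its gap to the nearest other mouse took up most of the range of the group. In normally distributed values chance does this in about 1 in 20 groups. Of the 244 groups examined 26 had such a value. That count cannot be set against 1 in 20. CPM values near 0 are not normally distributed, and the genes were chosen from these data. Sham-Ad lib 4F accounted for 15 of them and was the high value each time. It stood apart for the neutrophil and myeloid genes Camp (0.376 CPM), Ngp (1.88), Ltf (1.29), S100a8 (4.13), Mpo (2.36), Elane (1.18), Mmp9 (1.13), Chil3 (2.31), Ly6c2 (2.09) and Fcer1g (15.5), for the Kupffer cell genes C1qa (60.9) and Marco (57.5), and for H2-DMb1 (5.9), Ighg2b (6.87) and Nfkbiz (20.2). These genes share 1 animal and are not independent. VSG 1F was the high value for Cd14 (58.5 CPM), Lgmn (184), Ighm (78.5) and Ccl6 (40.99) and the low value for Lamb3 (2.93) and Ces1e (53.29). VSG 18F was the high value for Alb (91190 CPM). Sham-Ad lib 6F was the high value for Krt23 (17.7) and Cyp2b13 (25.8). Sham-Ad lib 10F was the high value for Cyp2c70 (378) and the low value for Cdh5 (11.6).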

How the results depend on the processing

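The main analysis called 98 genes, 61 higher and 37 lower. DESeq2 called 1202 (713 and 489), edgeR without a filter on low counts 628 (416 and 212), RUVr factors 3016 (1694 and 1322) and RUVs factors 6 (5 and 1), while an unadjusted p under 0.05 gave 3149 (1869 and 1280). At least 10 counts in every library, a fit of the 8 libraries alone and grouping by the description field each called 0 genes, 0 higher and 0 lower, with 2755, 2523 and 465 at an unadjusted p under 0.05. A log2 fold change beyond 1 as well left 70 genes, 18 of them lower. DESeq2 size factors in edgeR (127) and upper quartile factors (80) stayed close to the main count. Leaving out 1 library gave 0 to 1089 called genes, 0 to 735 higher and 0 to 354 lower. The cause of these shifts was not tested. All 98 genes kept their sign under every alternative that tested them other than the description field, under which 84 did, and in a fit with at least 10 counts in every library 68 of them were tested, but with 93 of them free of overlap the choice of genes largely set their sign. Under that field the log2 fold change changed sign, with adjusted p-values of 0.999 or above, for Krt23 (1), Cfd (0.86), Fads2 (0.36), Hsd17b7 (0.1), Lss (0.21), Aacs (0.4), Aim2 (-0.03), Apoa4 (0.25), Bcl3 (-0.21), Cidea (1), Cidec (0.52), Cpt1a (0.2), Cyp2c70 (-0.18), Fdps (0.46), Fgf21 (0.77), Fitm2 (0.03), Got1 (0.28), Gstp1 (-0.32), Hmgcs1 (0.64), Pank3 (0.03), Pde4d (0.14), Plin2 (0), Ppara (0.15), Ppp1r3g (2.12), Saa1 (-0.51), Saa2 (-0.52), Saa3 (-2.05), Sc5d (0.05), Tagln (0.07) and Zfas1 (-0.03). RUVs factors reversed Saa1 (-2.32), Saa2 (-2.84) and Lcn2 (-0.78). With a library left out the value of Cyp2b13 ranged from -4.97 to 0.58, the latter without Sham-Ad lib 6F. No paired analysis was possible because the groups share no animal numbers. Depth limits the neutrophil folds, since 3 counts correspond to 0.161 to 0.188 CPM in Sham-Ad lib.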

Other observations

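Of the 98 called genes 70 were in no list, and some of these, picked after their values were seen, are given here. Cfp, the complement regulator properdin, had CPM values of 8.15, 28.4, 11.9 and 12.1 in Sham-Ad lib and 85.1, 47, 47.9 and 30.8 in VSG (log2 fold change 1.8 ± 0.36, adjusted p = 0.0459 by edgeR). Ccl6, a chemokine of macrophages, rose too (1.92 ± 0.41, adjusted p = 0.0493), as did the transcription factor Runx1 (2.47 ± 0.48, adjusted p = 0.0442) and Srgn, the proteoglycan core of secretory granules (1.52 ± 0.29, adjusted p = 0.0442). Clec1b, the podoplanin receptor that platelets and Kupffer cells carry, had 8.09, 9.82, 8.55 and 6.34 against 28, 12.5, 20.5 and 14.1 (1.19 ± 0.23, adjusted p = 0.0442), and Clec9a overlaps it on the same strand. The cell cycle inhibitor Cdkn2c rose evenly, from between 3.62 and 5.46 CPM to between 7.98 and 9.5 (0.88 ± 0.16, adjusted p = 0.0442), and Pmaip1, the pro-apoptotic gene Noxa, from between 0.379 and 0.751 to between 1.76 and 2.75 (1.97 ± 0.32, adjusted p = 0.041).

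Among genes that fell, Ces1e, a liver carboxylesterase, had 177, 134, 158 and 152 CPM in Sham-Ad lib and 53.3, 98, 90.9 and 94.3 in VSG (-0.88 ± 0.17, adjusted p = 0.0442). Pank3, a pantothenate kinase that starts the synthesis of coenzyme A, had 133, 82.8, 123 and 93.4 against 53.5, 69.5, 62.5 and 75.8 (-0.73 ± 0.15, adjusted p = 0.0493). Cyb5b, the cytochrome b5 of the outer mitochondrial membrane, had 589, 475, 545 and 435 against 288, 327, 238 and 350 (-0.76 ± 0.14, adjusted p = 0.0435). Some changes were small and tight, as for the deubiquitinase Usp22 (-0.55 ± 0.11, adjusted p = 0.0459) and the RNA-binding protein Larp4 (-0.59 ± 0.12, adjusted p = 0.0442).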
